A study of Mus musculus with 14 samples.

Results

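Gfap, Vim, Nes, S100b, Aqp4, Sparcl1, Clu, Hopx, Cst3 and Cpe are 10 genes commonly read as markers of radial glia-like stem cells and of astrocytes. They were followed in adult mouse neural stem and progenitor cells (NSPCs). The 10 genes were taken by symbol from the annotated table of the study, and all 10 were found among its 53696 genes. Poly-A RNA of 14 libraries was counted, in 4 groups that all come from the C57BL/6 strain. Quiescent cells were treated with BMP4 (4 libraries), and proliferating cells with FGF and EGF (4 libraries). The other 2 groups were both kept in FGF and EGF. One received a GFP adeno-associated virus (GFP control, 3 libraries) and the other a Cre-GFP adeno-associated virus (Yme1l KO, 3 libraries). These groups differ in Cre as well as in Yme1l1, so an effect of Cre cannot be told apart from that of the deletion. The labels name a wild-type mouse for every group, the KO included, and give neither the floxed allele nor the age of the animals. They also do not say whether replicates were separate animals or cultures, so the p-values reflect only the variation among these libraries, part of which can be technical.

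Radial glia-like stem cells of the adult brain and astrocytes descend from radial glia and share much of their expression. Their cytoskeleton is built of intermediate filaments, in which vimentin and nestin assemble together and GFAP is added as the astroglial programme proceeds. BMP ligands act through SMAD proteins and cytokines of the LIF and CNTF family act through STAT3. Both routes are known to raise Gfap in neural progenitors, and in culture BMP4 holds adult stem cells in a reversible quiescence. For that reason none of these markers alone separates a quiescent stem cell from an astrocyte.

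For 6 of the 10 genes (Gfap, Vim, Nes, S100b, Hopx and Cst3) RefSeq start sites were at hand. The promoters of Gfap and S100b, which rose with BMP4, and of Vim and Nes, which fell, are shown because these are the genes the comparison of quiescence turns on. Each sequence is the 250 bases before the RefSeq start, 5′ to 3′ on the gene's strand, in GRCm38.p6, which is an older build than the GRCm39 of the deposited tables. Capitals mark 4 motifs found on either strand: the short NFI element TTGGC, the TATA element TATAAA, the RBPJ element TGGGAA and the SP1 GC box GGGCGG.
Gfap (chr11:102897201-102897450, minus strand): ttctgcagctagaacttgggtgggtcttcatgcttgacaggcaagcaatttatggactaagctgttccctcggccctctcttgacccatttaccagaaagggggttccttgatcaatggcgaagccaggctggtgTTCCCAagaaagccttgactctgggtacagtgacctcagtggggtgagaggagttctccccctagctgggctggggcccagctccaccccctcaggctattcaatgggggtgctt
S100b (chr10:76253586-76253835, plus strand): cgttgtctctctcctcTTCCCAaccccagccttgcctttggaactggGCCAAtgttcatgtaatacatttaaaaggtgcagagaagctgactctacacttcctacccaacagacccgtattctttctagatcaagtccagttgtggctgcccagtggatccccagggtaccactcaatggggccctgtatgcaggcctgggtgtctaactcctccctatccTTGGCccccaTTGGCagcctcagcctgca
Vim (chr2:13574061-13574310, plus strand): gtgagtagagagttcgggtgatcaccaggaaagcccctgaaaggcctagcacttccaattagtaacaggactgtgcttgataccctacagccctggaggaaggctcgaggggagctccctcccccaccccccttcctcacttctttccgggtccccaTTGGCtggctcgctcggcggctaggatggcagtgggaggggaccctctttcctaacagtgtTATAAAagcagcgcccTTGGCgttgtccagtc
Nes (chr3:87970843-87971092, plus strand): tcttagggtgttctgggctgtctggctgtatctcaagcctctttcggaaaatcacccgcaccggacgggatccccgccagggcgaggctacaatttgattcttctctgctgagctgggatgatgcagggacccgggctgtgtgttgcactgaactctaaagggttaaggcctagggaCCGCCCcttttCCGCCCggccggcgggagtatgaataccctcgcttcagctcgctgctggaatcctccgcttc

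The S100b window held 3 copies of TTGGC, in either orientation, and 1 of TGGGAA. The Gfap window held 1 TGGGAA, on the opposite strand. The Vim window held 2 copies of TTGGC and a TATAAA from 32 to 27 bases before the start, and the Nes window held 2 GC boxes. Among 32817 mouse promoter windows of the same length, TTGGC was present in 41.5%, GGGCGG in 32.7%, TGGGAA in 21.6% and TATAAA in 12.4%. The STAT palindrome TTCNNNGAA (7.01% of windows), the AP-1 element TGANTCA (6.75%), the GC-rich SMAD element GGCGCC (9.59%) and the SMAD box palindrome GTCTAGAC (0.168%) were not found in these 4 windows, nor in those of Hopx and Cst3. A further 3 motifs were searched and left unmarked: ACAAAG (16.5%), CANNTG (66.2%) and CCAAT (33.8%), the last of which overlaps a TTGGC in Vim and in S100b. These matches describe the letters only. The transcript starts of the GENCODE M21 annotation were set beside these positions. Nes-201 starts on the same base, Nes-203 lies 36, S100b-201 lies 17 and Gfap-201 lies 69 bases downstream, while Vim-201 starts 359 bases upstream, so that the Vim window lies inside that transcript.

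The libraries held 6475099 to 10320736 gene counts. Yme1l1, the gene deleted in the KO, measured 127 ± 7.49 CPM (SD, n = 3) in the GFP control and 24.7 ± 1.61 CPM (SD, n = 3) in the KO, with no overlap (edgeR log2 fold change -2.36, SE 0.07, adjusted p = 5.89e-11). In the other table, which was quantified separately, Yme1l1 was listed lower still, at 2.18 to 4.77 CPM in proliferating and 3.91 to 11.1 CPM in quiescent libraries, so its level checks the KO only within the virus experiment. Levels are given as CPM, counts relative to the TMM-scaled library size. A call required an adjusted p (Benjamini-Hochberg, over all genes tested) under 0.05 in edgeR's quasi-likelihood test. Quiescent replicate 2 stood apart from the other quiescent libraries. The tertile of genes with the lowest GC content lay 0.32 above the mean of the other quiescent libraries on the log2 scale at the median and the tertile with the highest at -0.12, measured in the same way, against medians between -0.14 and 0.10 in the other libraries of that table. KO replicate 3 lay farthest from the GFP controls, at 36.5 on the first principal component against 18.6 and 16.6 for the other KO libraries. Member results are therefore given with and without these libraries where the difference matters.

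In quiescent against proliferating cells all 10 genes could be tested. Gfap, S100b, Aqp4, Sparcl1, Clu and Cst3 were higher, Vim, Nes and Cpe were lower, and Hopx was not called. Calls were common in this comparison: 65.4% of the 12245 genes tested were called, 29.9% higher and 35.5% lower, so a count of 9 called genes has to be read against that share. With library size alone as the scaling the balance was 2823 genes higher and 5219 lower, against 3664 and 4346 here. The size of the called changes spread widely, the largest being a 48.4-fold rise of Sparcl1 and the smallest a 1.23-fold fall of Cpe. Of the 10 genes, 4 rose and 1 fell by at least 2-fold, against 10.1% and 10.6% of all genes tested. The median log2 fold change was 0.72 for the 10 genes and -0.01 over all genes tested. These are bulk libraries, in which fewer cells of a type and less RNA per cell cannot be told apart. BMP4, the growth factors named for each group and division differ together between quiescent and proliferating cells. Their effects cannot be told apart here, and "with BMP4" below names the comparison.

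**Figure D1:**
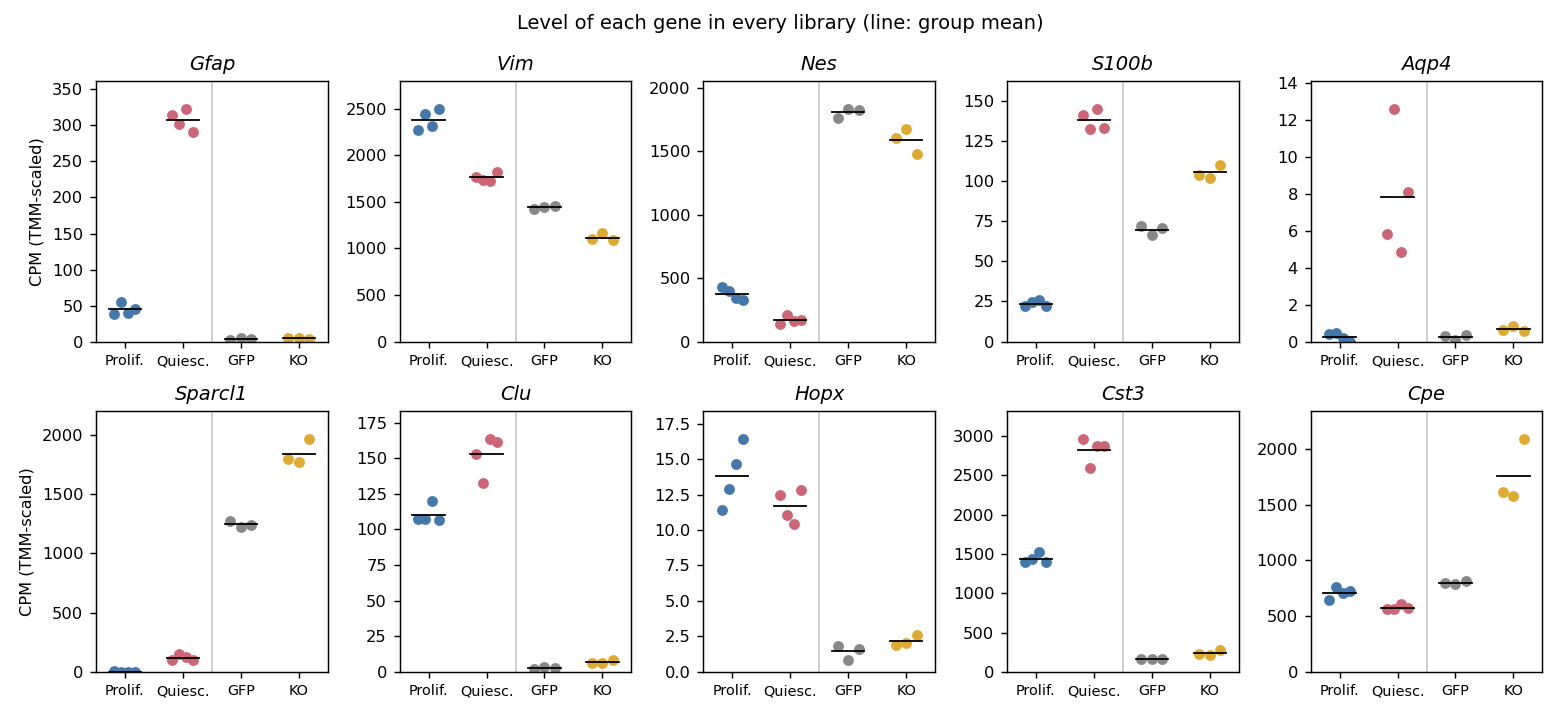
Level of each of the 10 genes in every library, in TMM-scaled CPM on a linear axis that starts at 0, with 1 point per library and a line at the group mean. A grey line separates the tables, which were quantified separately. The 9 genes other than Hopx separate quiescent from proliferating cells without overlap, as did 59.7% of all genes tested, and Gfap stays between 2.75 and 5.10 CPM in all 6 libraries of the virus experiment.

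Among the intermediate filament genes, Gfap and its partners moved in opposite directions. Gfap (ENSMUSG00000020932, chromosome 11, 102778162 to 102791738, minus strand, GRCm39) encodes the filament protein that defines astroglia. It measured 38.8, 55.6, 39.2 and 45.0 CPM in proliferating replicates 1, 2, 4 and 5 and 314, 302, 323 and 291 CPM in quiescent replicates 1 to 4. Every quiescent library lay far above every proliferating one. The means were 307 ± 14.1 and 44.7 ± 7.86 CPM (SD, n = 4 each), a log2 fold change of 2.78 (SE 0.10, edgeR adjusted p = 1.96e-09) or 6.89-fold.

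Vimentin (Vim, ENSMUSG00000026728, chromosome 2, 13578738 to 13587637, plus strand) is the filament protein of radial glia and of most immature neural cells. Its level was 2269.7, 2438, 2312 and 2497 CPM in proliferating and 1766, 1738, 1726 and 1822 CPM in quiescent libraries. The groups did not overlap, but the shift was small beside the level (log2 fold change -0.43, SE 0.04, adjusted p = 1.19e-07). Nestin (Nes, ENSMUSG00000004891, chromosome 3, 87878385 to 87887758, plus strand) is the filament protein used to identify neural progenitors. It measured 431, 401, 343 and 331 CPM in proliferating and 135, 208, 162 and 170.1 CPM in quiescent libraries. Quiescent replicate 2 and proliferating replicate 1 were the highest of their groups, and the groups still did not overlap. The mean fell from 377 ± 47.7 to 169 ± 30.1 CPM (SD, n = 4 each), with a log2 fold change of -1.15 (SE 0.15, adjusted p = 0.000258), and of -1.19 (adjusted p = 0.000379) without quiescent replicate 2.

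The calcium-binding protein S100b (ENSMUSG00000033208, chromosome 10, 76089687 to 76096993, plus strand) is used as a marker of maturing astrocytes. It measured 21.9, 24.6, 25.8 and 22.5 CPM in proliferating and 141, 132, 145 and 133 CPM in quiescent libraries. The spread inside each group was a small part of the gap between them. This was a log2 fold change of 2.54 (SE 0.07, adjusted p = 2.51e-14), or 5.81-fold.

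Aqp4 (ENSMUSG00000024411, chromosome 18, 15522553 to 15544039, minus strand) encodes the water channel of astrocyte endfeet. It was the least abundant of the 10 genes in every group by length-normalised level. Its counts were 4, 4, 2 and 0 in proliferating and 36, 108, 30 and 58 in quiescent libraries, which gives 0.270 ± 0.207 and 7.85 ± 3.45 CPM (SD, n = 4 each). Quiescent replicate 2 was the highest, and 85.3 of its 108 counts fell on transcripts that the GENCODE M21 annotation does not hold, against 0 in the other quiescent libraries. Unmatched counts were also 1.17 of 4 and 2 of 2 in proliferating replicates 2 and 4. In the virus experiment they were 3 of 3, 1 of 1 and 2.24 of 4 in the GFP controls, and all counts in each KO library. Aqp4-201 held 132.7 counts in quiescent and 0 in proliferating libraries, and Aqp4-205 held 0 and 6.83. In these estimates the transcripts assigned to Aqp4 differed. The proliferating libraries held only 4, 4, 2 and 0 counts, and the shares of Aqp4 transcripts were not tested. No difference in transcripts between the groups is therefore read from them. Aqp4 was higher in quiescent cells by a log2 fold change of 4.78 (SE 0.49, adjusted p = 1.07e-06). The value was 4.53 (adjusted p = 4.27e-09) without quiescent replicate 2 and 4.53 with the trend of each library with GC content removed. On log2(TPM + 1), where the added 1 compresses low values, it was 1.65 (limma adjusted p = 0.000467), and with counts scaled from TPM 3.15 (adjusted p = 0.00174). The direction was shared by all of these, while the size of the rise depends on the scale.

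Sparcl1 (ENSMUSG00000029309, chromosome 5, 104226977 to 104261599, minus strand) encodes the secreted matrix protein hevin of astrocytes. It had the largest fold change of the 10 genes in this comparison. The proliferating libraries held 3.27, 2.43, 1.95 and 2.07 CPM and the quiescent ones 99.7, 150.1, 123 and 101 CPM. No quiescent library came near the proliferating level. Sparcl1 rose by 5.60 on the log2 scale (SE 0.21, adjusted p = 9.57e-09), and 5.54 without quiescent replicate 2, which was the highest.

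Clusterin (Clu, ENSMUSG00000022037, chromosome 14, 66205932 to 66218996, plus strand) is a secreted chaperone and apolipoprotein. It measured 107, 107, 119.7 and 107 CPM in proliferating and 153, 132, 163 and 162 CPM in quiescent libraries. The groups did not overlap, and quiescent replicate 2 was here the lowest of its group. Clu rose by 0.47 on the log2 scale (SE 0.07, adjusted p = 1.42e-05), and 0.62 without that library. Cystatin C (Cst3, ENSMUSG00000027447, chromosome 2, 148713642 to 148717612, minus strand), a secreted inhibitor of cysteine cathepsins, measured 1399.7, 1432, 1527 and 1404 CPM in proliferating and 2962, 2598, 2871 and 2875 CPM in quiescent libraries. Cst3 rose by 0.97 on the log2 scale (SE 0.05, adjusted p = 3.06e-11), or 1.96-fold from an already high level.

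Cpe (ENSMUSG00000037852, chromosome 8, 65045576 to 65146088, minus strand) encodes carboxypeptidase E, which trims prohormones and neuropeptides. It moved against the secreted proteins above. The proliferating libraries measured 645, 764, 709 and 725 CPM and the quiescent ones 562, 561, 609.6 and 572 CPM. The lowest proliferating library still lay above the highest quiescent one, with a log2 fold change of -0.30 (SE 0.05, adjusted p = 7.22e-05). Hopx (ENSMUSG00000059325, chromosome 5, 77234835 to 77262968, minus strand), a small homeodomain-only protein that marks quiescent stem cells in several tissues and radial glia-like cells of the dentate gyrus, measured 11.4, 12.9, 14.6 and 16.4 CPM in proliferating and 12.4, 11.1, 10.4 and 12.8 CPM in quiescent libraries. These ranges overlapped, and the difference did not pass the test (log2 fold change -0.24, SE 0.14, adjusted p = 0.145). With library size alone as the scaling it passed (-0.38, adjusted p = 0.0273), but that scaling also moved the median of all genes to -0.15.

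**Figure D2:**
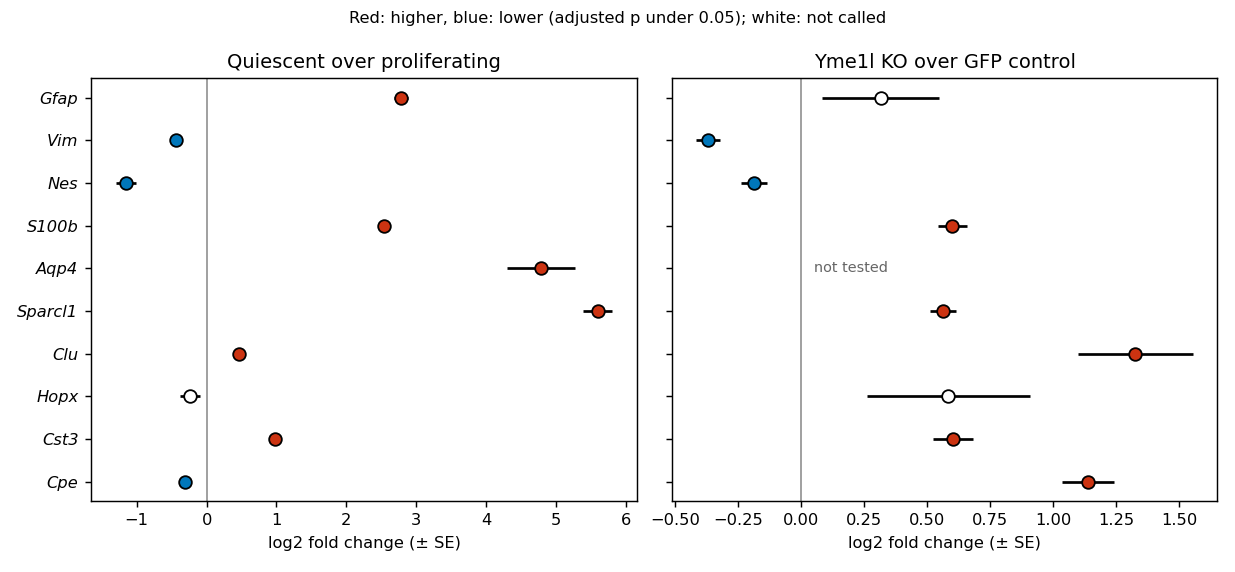
Log2 fold change of the 10 genes with its standard error (edgeR) in quiescent over proliferating cells (left) and in Yme1l KO over GFP control cells (right), on separate horizontal scales. Red and blue points are genes called higher and lower and white points genes that were not called. Gfap, S100b, Sparcl1, Clu and Cst3 lie right of 0 in both panels, and Vim and Nes left of 0 in both. Cpe changes side, from -0.30 to 1.14, as does Hopx, from -0.24 to 0.58. Gfap was not called in the KO, and Hopx was called in neither comparison.

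In Yme1l KO against GFP control cells, both in the growth factors that support division, 9 of the 10 genes passed the filter on low counts. S100b, Sparcl1, Clu, Cst3 and Cpe were higher, Vim and Nes were lower, and Gfap and Hopx were not called. Here 51.6% of 12625 genes were called, 25.4% higher and 26.2% lower. Clu and Cpe were the 2 genes that changed by at least 2-fold, a size reached by 3.16% of all genes in the upward direction. The median log2 fold change of the 9 genes was 0.58, against 0.00 over all genes tested.

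Between KO and GFP control, Cpe showed the largest difference in CPM of the 10 genes, while Clu had the larger log2 fold change. Cpe measured 798, 785 and 814 CPM in the GFP control and 1614, 1575 and 2088 CPM in the KO. All KO libraries lay far above the controls, and KO replicate 3 was the highest. The log2 fold change was 1.14 (SE 0.10, edgeR adjusted p = 5.33e-05), and 0.997 (adjusted p = 3.28e-42) without KO replicate 3. The latter p rests on fewer libraries and a smaller fold change, and is not read as stronger evidence. Clu was low here, at 2.14, 3.32 and 2.68 CPM in the control and 5.84, 6.13 and 8.49 CPM in the KO, from 21 to 31 and 55 to 75 counts. The groups did not overlap, with a log2 fold change of 1.33 (SE 0.23, adjusted p = 0.000229).

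Sparcl1, S100b and Cst3 rose by similar amounts. Sparcl1 measured 1278, 1226 and 1243 CPM in the control and 1797, 1769 and 1965 CPM in the KO (log2 fold change 0.56, SE 0.05, adjusted p = 1.78e-06). S100b measured 71.8, 66.2 and 70.6 CPM in the control and 104, 102 and 110.2 CPM in the KO (log2 fold change 0.60, SE 0.06, adjusted p = 2.70e-06). In both genes each KO library exceeded each control. Cst3 measured 158, 163 and 159.6 CPM in the control and 229.5, 220.1 and 281 CPM in the KO, again without overlap. It rose by 0.60 on the log2 scale (SE 0.08, adjusted p = 0.000108), and 0.49 without KO replicate 3.

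Both filament genes of progenitors fell, by less than 1.5-fold. Vim went from 1421, 1440.2 and 1458 CPM in the control to 1098, 1163 and 1086 CPM in the KO (log2 fold change -0.37, SE 0.05, adjusted p = 2.13e-05). Nes went from 1758, 1833 and 1827 CPM to 1602, 1679 and 1481 CPM. The KO libraries lay below the controls, with KO replicate 3 the lowest, with a log2 fold change of -0.19 (SE 0.05, adjusted p = 0.00813). The Nes call was lost when all 14 libraries shared one fit (-0.22, adjusted p = 0.184). It was kept in each fit that left out 1 library, with -0.14 (adjusted p = 4.83e-05) without KO replicate 3. That smaller p, too, came with fewer libraries and a smaller fold change, and is not read as stronger evidence.

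Gfap, Hopx and Aqp4 gave no call in the KO. Gfap measured 2.75, 4.39 and 3.54 CPM in the control and 5.10, 4.62 and 3.51 CPM in the KO, from 27 to 48 counts per library. The ranges overlapped, and the log2 fold change of 0.31 (SE 0.23, adjusted p = 0.273) did not pass the test. Hopx, with 8 to 23 counts per library, measured 1.83, 0.857 and 1.63 CPM in the control and 1.91, 2.04 and 2.60 CPM in the KO. These groups did not overlap, yet the difference did not pass (0.58, SE 0.32, adjusted p = 0.146), and 61.4% of all genes tested showed no overlap. Aqp4 had 3, 1 and 4 counts in the control and 6, 8 and 5 in the KO and was below the filter. Without a filter its log2 fold change was 1.31 (adjusted p = 0.165), so that no change of Aqp4 was detectable at this depth.

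The comparisons share no library, and their values can be set side by side for each gene. The difference between the comparisons was not tested. S100b rose by 2.54 on the log2 scale with BMP4 and by 0.60 in the KO, Sparcl1 by 5.60 and 0.56, and Cst3 by 0.97 and 0.60. Clu rose by 0.47 and 1.33, the larger value being that of the KO. Vim was lower in both (-0.43 and -0.37), as was Nes (-1.15 and -0.19). Among the 7 genes called in both comparisons, Cpe was the one with opposite signs (-0.30 and 1.14).

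**Figure D3:**
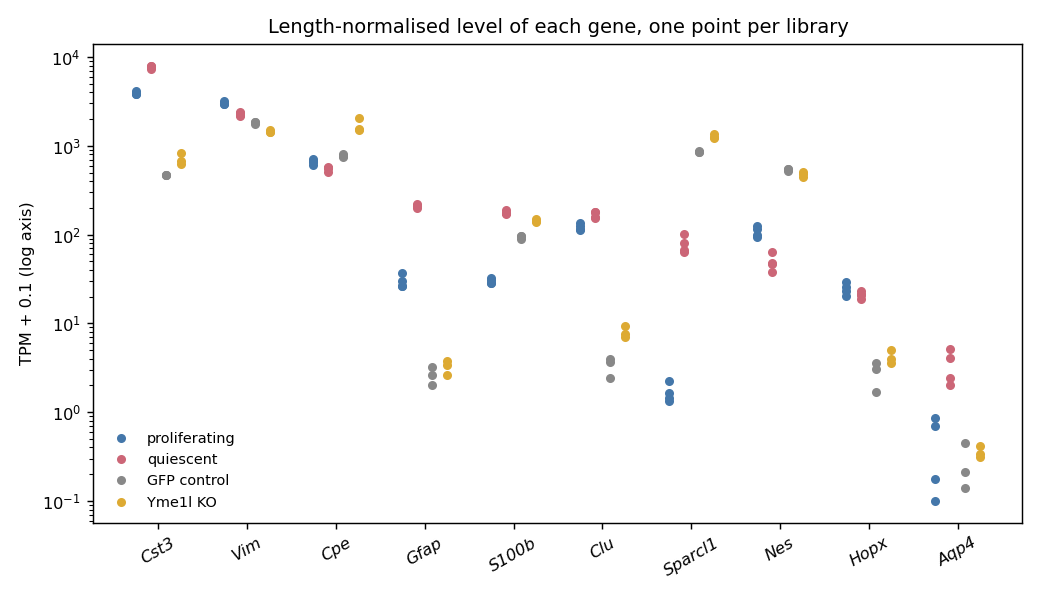
Length-normalised level (TPM, with 0.1 added, on a log axis) of the 10 genes, with 1 point per library coloured by group. Cst3, Vim and Cpe lie at the top in the quiescent and proliferating libraries and Aqp4 at the bottom in every group, while Sparcl1 spans from 1.57 TPM in proliferating to 1278 TPM in KO cells.

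Levels of different genes were compared per length, in TPM. In quiescent cells the order was Cst3 (7771 ± 270.4 TPM), Vim (2279.7 ± 96.7), Cpe (548 ± 32.1), Gfap (211 ± 8.97), S100b (177 ± 7.51), Clu (169 ± 14.3), Sparcl1 (78.3 ± 17.02), Nes (49.0 ± 10.5), Hopx (20.97 ± 1.67) and Aqp4 (3.32 ± 1.46; SD, n = 4). S100b and Clu were the only neighbours whose libraries overlapped. In proliferating cells Cst3 (3919 ± 143) and Vim (3023 ± 106) led again. Clu and Nes overlapped there at 123 and 108 TPM, as did S100b with Gfap and Gfap with Hopx, between 30.2 and 24.5 TPM. Sparcl1, at 1.57 ± 0.403 TPM, exceeded only Aqp4.

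The order was different in the virus experiment. In the GFP control Vim (1828 ± 68.7 TPM), Sparcl1 (863 ± 14.2), Cpe (769.9 ± 34.9), Nes (540.0 ± 14.9) and Cst3 (469 ± 4.54; SD, n = 3) followed each other without overlap. S100b stood at 94.2 ± 3.67 TPM, and Clu, Hopx and Gfap overlapped between 3.27 and 2.54 TPM. In the KO Cpe (1707 ± 321 TPM) lay above Vim (1457 ± 39.3) and Sparcl1 (1278 ± 66.7). Gfap and Hopx overlapped at 3.15 and 4.10 TPM.

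Proliferating and GFP control cells were both kept in FGF and EGF, yet their levels of these genes were far apart. Sparcl1 measured 2.43 CPM in proliferating and 1249 CPM in GFP control cells, and Nes 377 and 1806 CPM. Gfap went the other way, with 44.7 and 3.56 CPM, as did Clu (110.2 and 2.71 CPM) and Cst3 (1441 and 160.3 CPM). The tables were quantified separately, and virus, experiment and table cannot be told apart here, so these gaps were not tested.

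Transcript counts gave each gene's isoforms, matched by ID to GENCODE M21 names. Gfap-201 carried 91.0 ± 0.861% of Gfap counts in quiescent and 90.0 ± 3.31% in proliferating cells (SD, n = 4 each). S100b came from the single transcript S100b-201, and Sparcl1-201, Cpe-201, Cst3-201 and Clu-201 carried on average at least 92.8% of their genes in each group. Nes was split between 2 coding transcripts, with Nes-203 at 68.3 ± 5.31% in quiescent and 71.1 ± 2.88% in proliferating cells, while Nes-201 carried 74.0 ± 3.55% in the KO and 75.8 ± 1.40% in the GFP control (SD, n = 3 each). Vim-201 held 73.4 ± 1.73% and 73.9 ± 1.504% in quiescent and proliferating cells. No difference was detected in the 4 shares tested in the first comparison (exact permutation test, two-sided, adjusted p = 0.714 for each) or in the 5 of the second (adjusted p = 1). With 4 against 4 libraries the smallest exact p is 0.0286 before adjustment, so that 1 share alone could not have passed, and 3 against 3 libraries cannot give an exact p below 0.1.

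The genes of the BMP, JAK/STAT, Notch and NFI routes that act on Gfap were read from a list of 34. With BMP4, 15 of 32 tested members rose and 8 fell, with a median log2 fold change of 0.20. Of all genes tested, 29.9% were called higher and 35.5% lower in that comparison. Among receptor genes of these routes, Cntfr, the CNTF receptor, was not called (0.09), while the following were higher: Lifr, a receptor chain for LIF and CNTF, by 2.85 (SE 0.24), its partner Il6st (gp130) by 1.98, and the BMP receptors Bmpr1a by 2.47, Bmpr2 by 2.34 and Bmpr1b by 1.54. Id1, a direct BMP target, rose by 3.37 (SE 0.07) from 35.4 ± 3.33 to 366 ± 26.4 CPM, and Id3 by 0.92. Stat3 itself rose by only 0.20, and Socs3, a target and inhibitor of the STAT3 route, fell (-1.70). Dnmt1, the maintenance DNA methyltransferase, fell by 1.85 on the log2 scale, and the Notch targets Hes1 (-0.62) and Hes5 (-0.56) fell. Nfia, a factor that opens the Gfap gene during gliogenesis, rose by 0.52 (adjusted p = 0.0462), while Nfib (-0.27, adjusted p = 0.527) and Nfix (0.01) were not called. Without quiescent replicate 2, or with the trend with GC content removed, 17 rose and 8 fell, and Nfix and Cntfr were then called higher, by 0.12 and 0.22 without that library.

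In the KO, 13 of 32 tested genes of that list rose and 5 fell, with a median of 0.13. Of all genes tested in the KO, 25.4% were called higher and 26.2% lower. Id1 rose by 0.45 (adjusted p = 0.000281) and Cntfr by 0.46 (adjusted p = 0.000486). Lifr measured 0.01 and Stat3 0.07, and neither was called. Hes5 fell by 2.61, from 2.71 to 0.434 CPM, and Dnmt1 by 0.86. Sox9, a glial fate factor, had opposite calls, -0.43 with BMP4 and 0.29 in the KO. Without KO replicate 3, 13 genes of the list rose and 4 fell, with Bmpr1b no longer called (-0.41, edgeR adjusted p = 0.0689).

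**Figure D4:**
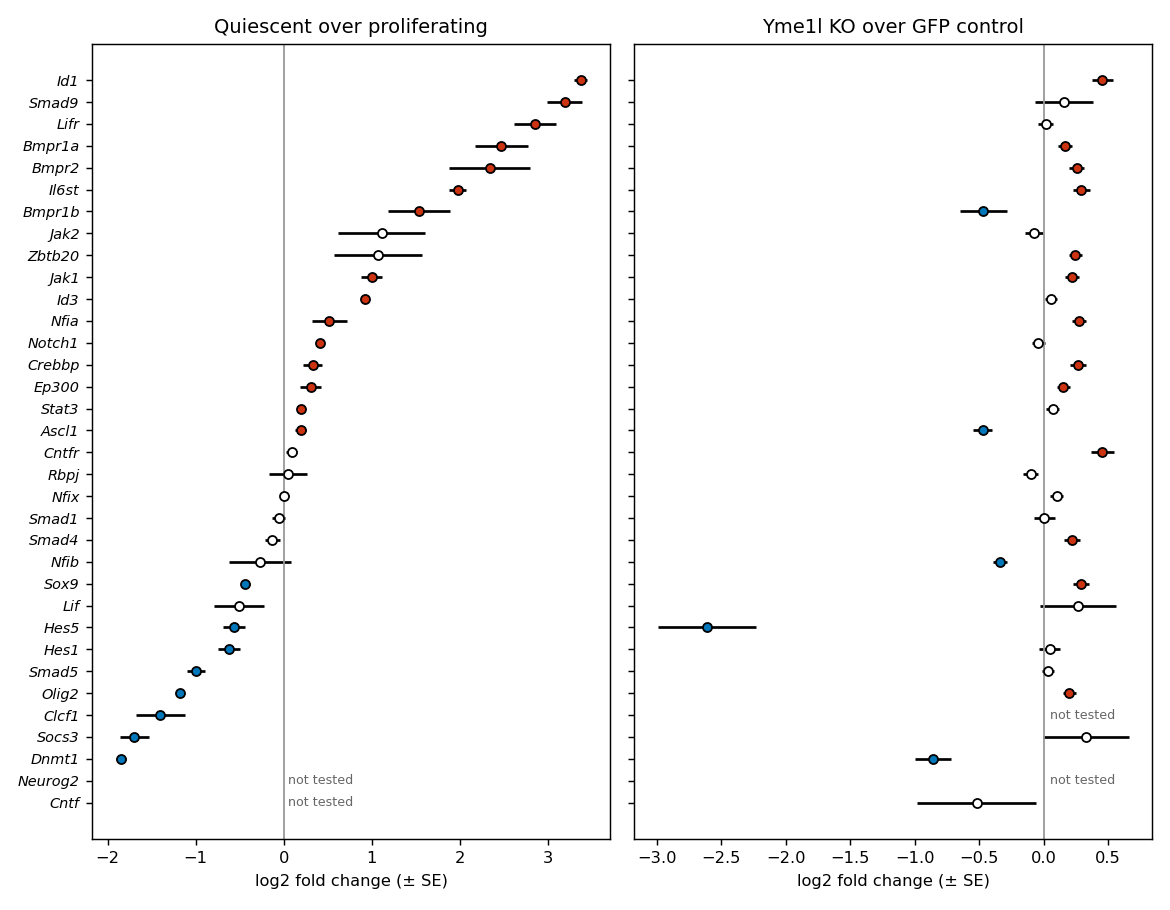
Log2 fold change with standard error (edgeR) of the genes of signalling routes that act on Gfap, ordered by their change in quiescent over proliferating cells (left) and shown in the same order for Yme1l KO over GFP control (right), on separate scales. Red and blue points were called higher and lower, and white points were not called. Id1, Smad9 and Lifr head the left panel, and the KO values lie between -1 and 0.5 except for Hes5 at -2.61.

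Of 10 tested filament and linker genes, 6 rose and 3 fell with BMP4, with a median of 0.78, against 29.9% and 35.5% of all genes. Plectin (Plec), which links filaments to other cell structures, rose by 3.75 from 54.1 to 729 CPM. Padi2, an enzyme that citrullinates filament proteins, rose by 1.61, and the nuclear lamin gene Lmnb1 fell (-2.99). In the KO 3 of 10 rose and 2 fell, near the 25.4% and 26.2% of all genes tested. Synm, whose protein synemin joins vimentin and GFAP filaments, rose by 1.66 (adjusted p = 1.45e-05) from 3.38 to 10.8 CPM, and Lmnb1 (-0.98) and Lmnb2 (-0.81) fell.

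Gene families around the secreted and calcium-binding members were counted next. Of all genes tested, 29.9% were called higher and 35.5% lower with BMP4, and 25.4% and 26.2% in the KO. Among 7 tested genes of the S100 family and its receptor, 4 rose and 2 fell with BMP4, with S100a16 at 0.68 and S100a13 at 0.88. In the KO 1 of 4 rose, S100a13 at 0.86, and 2 fell. The falls of Ager with BMP4 and of S100a10 in the KO were not called without quiescent replicate 2 (edgeR adjusted p = 0.0664) and without KO replicate 3 (adjusted p = 0.0694), which left 1 gene lower in each. Of the SPARC family, Sparc rose by 0.62 with BMP4 and 0.94 in the KO and Spock2 by 1.51 and 1.07, whereas Smoc1 fell in both (-1.98 and -1.32). Among the cathepsins and cystatins, 4 of 7 rose with BMP4 and 5 of 6 in the KO, and Ctsc, which encodes cathepsin C, fell in both (-0.74 and -0.22). Legumain (Lgmn), a protease that cystatin C inhibits, rose by 1.68 and 0.86 and cathepsin L (Ctsl) by 1.13 and 0.77.

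For clusterin, 5 of 7 tested receptor and apolipoprotein genes rose with BMP4 and 3 of 6 in the KO, and 2 fell in each. Apoe rose by 0.16 and 1.18. Of 8 tested genes of prohormone processing 6 rose and 1 fell with BMP4, and in the KO 5 of 6 rose and 1 fell, where 29.9% and 25.4% of all genes were called higher. The genes that fell, named after their values were seen, were Vgf with BMP4 (-2.37) and Cpd in the KO (-0.27). Chga, a granin of secretory granules, rose by 2.79 and 1.16 and Pcsk1n, an inhibitor of a prohormone convertase, by 1.40 and 1.01. Cpe itself fell with BMP4 (-0.30). Around Aqp4, 5 of 9 tested genes of aquaporins and the dystrophin complex rose and 0 fell with BMP4. In the KO 5 of 8 rose and 2 fell. The shares over all genes tested were 29.9% higher and 35.5% lower with BMP4, and 25.4% and 26.2% in the KO. Dtna of the dystrophin complex rose with BMP4 by 0.83. In the KO Dtna rose by 0.81 while Kcnj10, the potassium channel of endfeet, fell.

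Of 25 tested mature astrocyte genes, 14 rose and 6 fell with BMP4 (median 0.44), and in the KO 16 of 23 rose and 4 fell (median 0.30). The glutamate transporter gene Slc1a2 rose by 1.66 with BMP4 and Mfge8, which encodes a secreted phagocytosis bridge, fell (-1.31). In the KO Agt rose by 1.41 and Kcnj10 fell (-1.23). Radial glia-like genes rose in 11 and fell in 8 of 23 tests with BMP4, and rose in 7 and fell in 7 of 23 in the KO. Of all genes tested, 29.9% were called higher and 35.5% lower with BMP4, and 25.4% and 26.2% in the KO. The radial glia-like counts in the KO lie near these shares. Id4 (3.29) and Cd9 (2.001) rose with BMP4, while Sox9 and Hes5, which are also on this list, fell. In the KO Apoe rose (1.18), while Vcam1 (-0.94) and Tnc (-0.92), a matrix protein of radial glia, fell. All 8 proliferation genes fell in both comparisons, with medians of -2.34 and -1.07. Without quiescent replicate 2, 7 of the 8 fell with BMP4, as Mki67 (-1.96, edgeR adjusted p = 0.0868) lost its call, and 16 mature astrocyte and 12 radial glia-like genes rose. Without KO replicate 3 the counts of mature astrocyte genes stayed at 16 and 4, and 9 radial glia-like genes rose.

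Markers of other cell types were read beside these results. The summed level of 13 oligodendrocyte-lineage genes was 2918 to 3202 CPM in quiescent and 3881 to 4320.5 CPM in proliferating libraries, and 2966 to 3360 CPM in KO and 2391 to 2524 CPM in GFP control libraries. Most of it was Olig1 and Olig2. Cspg4 measured 82.4 CPM in quiescent, 57.0 CPM in proliferating, 99.9 CPM in KO and 79.9 CPM in GFP control cells. Sox10 was at 0 in quiescent, KO and GFP control cells and at 0.162 CPM in proliferating cells. Mog was at 0 in every group. Of 7 tested genes of this list, 2 rose and 3 fell with BMP4, against 29.9% and 35.5% of all genes tested. In the KO 3 of 6 rose and 0 fell, against 25.4% and 26.2%. The 13 microglial genes summed to 58.9 to 70.6 CPM in quiescent and 52.4 to 59.7 CPM in proliferating libraries. Tmem119 (4.06 against 0.105 CPM) and Lyz2 (6.53 against 0.545 CPM), named after their values were seen, rose with BMP4, and Cx3cr1, Ptprc and C1qa were at 0 in both groups. The 14 neuronal genes summed to 73.2 to 139 CPM in quiescent and 78.6 to 113 CPM in proliferating cells, and to 1323 to 1389 CPM in KO and 1308 to 1413 CPM in GFP control cells. The 12 vessel and fibroblast genes summed to 22.8 to 29.4 CPM in quiescent and 15.6 to 17.99 CPM in proliferating libraries, and the 8 ependymal genes to 51.6 to 60.1 and 73.5 to 79.6 CPM, both without overlap. In the virus experiment the vessel and fibroblast genes summed to 6.45 to 6.90 CPM in KO and 3.87 to 7.82 CPM in GFP control libraries. There the ependymal genes summed to 20.97 to 28.4 and 16.3 to 20.9 CPM and the microglial genes to 47.6 to 57.5 and 34.1 to 41.4 CPM, without overlap. The part of these cells in the member results was not tested.

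The genes whose pattern over the 14 libraries was most like that of Gfap were named by the smallest root mean square difference of log2(CPM + 1), each gene set to the mean of its own table. They were Mmgt2, Lratd1, Prpsap1, Tmem158 and Wnk2, at 0.134 to 0.213, where the median of 9144 genes was 1.10. With BMP4 these 5 rose by 2.44 to 2.91 on the log2 scale, which follows from their choice by likeness in these same libraries. In the KO, where Gfap was not called, Prpsap1 (0.19), Tmem158 (0.37) and Wnk2 (0.27) were called higher. Mmgt2 (0.36) and Lratd1 (0.20) were not. The genes most like Nes were Akap12, Khdrbs1, Spidr, Grm3 and Adat1, at 0.106 to 0.127 against a median of 0.477 over 9143 genes. They fell with BMP4 by between 1.09 (Khdrbs1) and 1.42 (Grm3), as log2 fold changes, which again follows from their choice. In the KO, where Nes was called lower, Akap12 (-0.44), Khdrbs1 (-0.36) and Spidr (-0.36) were called lower. Grm3 (-0.09) and Adat1 (-0.32) were not called. The KO and GFP control libraries were among the 14 used for the choice. The KO values of the genes like Gfap and like Nes therefore follow from that choice too, and are no independent result.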

How the data were processed

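The authors deposited, for each pair of groups separately, estimated counts (expected counts per gene), TPM values, counts scaled from TPM or by length, transcript counts and a table of log2 fold changes with p-values. That deposited table also holds the standard error of each fold change (treated as a score) and a mean normalised signal per gene. Per the submitters' processing notes, DESeq2 1.30.1 in R 4.0.3 and the build GRCm39 were used. The aligner or quantifier settings are not given in the sources used here. Libraries were made with a stranded poly-A kit, per the labels' protocols.

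Here estimated counts were rounded and tested in edgeR 4.0.16 (R 4.3.3) with TMM, filterByExpr (minimum count 10) and a robust quasi-likelihood fit, separately in each table, and adjusted over all genes tested. Standard errors were obtained by dividing the size of the log2 fold change by the root of the F statistic. The test was checked on simulated counts. Transcripts and GC content came from GENCODE M21 by ID, and promoters from RefSeq. The alternatives were RLE, library size alone, DESeq2 1.42.0, limma 3.58.1 on log2(TPM + 1), no filter, a filter of 1 CPM, all 14 libraries in one fit, length-scaled counts, a replicate block, leaving out each library and a 2-fold minimum. Counts scaled from TPM and removal of each library's GC trend were added after seeing the data, as were the list counts without quiescent replicate 2 or KO replicate 3.

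The members and the 17 other lists were chosen with earlier results of these data known. All members were named. Of other lists, up to 3 called genes per comparison with the largest fold and a mean of at least 5 CPM were named, any tested gene of lists with 10 or fewer, and any gene of the list acting on Gfap. No libraries held identical values. The labels do not say what the replicate numbers mark, and the main tests did not treat the samples as paired. Some genes of these lists that the rule would name are not reported here.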

Additional observations from a re-analysis of the deposited data

Results flagged for a closer look

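Clu in proliferating replicate 4, at 119.7 CPM, stood apart from the other proliferating libraries, which lay between 106.5 and 107.4 CPM. Its gap to the nearest of them was 0.931 of the range of the group, above Dixon's 95% critical value for 4 libraries. This was 1 of 20 such tests over the 10 genes in the quiescent and proliferating groups, and chance flags about 1 in 20. The quiescent libraries lay above it, from 132 to 163 CPM.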

How the results depend on the processing

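With BMP4, 189 of 190 member fold changes under the alternatives kept their direction and their side of the threshold, and in the KO 152 of 153. The exceptions are Hopx with library size alone (-0.38, adjusted p = 0.0273) and Nes in the KO with all 14 libraries in one fit (-0.22, adjusted p = 0.184), which left 1 member called lower. A 2-fold minimum left 1239 genes higher and 1295 lower with BMP4, with 1 member lower, and 399 higher and 261 lower in the KO, with 2 members higher and 0 lower. Leaving out each library gave 3379 to 4086 genes higher and 3738 to 4197 lower with BMP4, and 2683 to 3122 higher and 2884 to 3284 lower in the KO. The members called stayed at 6 higher and 3 lower, and at 5 and 2. Transcript shares, none of which passed a test, changed sign when single libraries were left out, ranging from -0.93 to 0.36 percentage points for Vim-201, -1.36 to 3.56 for Hopx-202 and -0.0432 to 2.39 for Gfap-201 with BMP4, and from -1.04 to 3.56 for Gfap-201 and -3.43 to 7.42 for Clu-201 in the KO. The cause was not tested.

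Deviations of same-numbered libraries correlated at -0.24, -0.35 and -0.01 (numbers 1, 2 and 4) and at 0.00, -0.05 and -0.01 in the KO experiment. Libraries with unlike numbers reached 0.51 (quiescent replicate 2 with proliferating replicate 1). These values show no pairing by number, but they cannot exclude a shared origin, which the labels do not give. With the number as a replicate block, 2844 genes were higher and 3686 lower with BMP4 and 3063 and 3189 in the KO, and the member counts stayed at 6 and 3 and at 5 and 2. Depth limits Aqp4, Gfap, Hopx and Clu in the virus experiment most, at 1 to 75 counts per library.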

Other observations

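Genes of the reactive astrocyte response, of which Gfap and Vim are the best known, moved in both directions. With BMP4, 5 of 16 tested genes of that list rose and 5 fell, with a median log2 fold change of 0.07. Of all genes tested, 29.9% were called higher and 35.5% lower with BMP4, and 25.4% and 26.2% in the KO. Without quiescent replicate 2, 6 rose and 4 fell and the median was -0.16, and with the trend with GC content removed it was -0.14. Cd44, a hyaluronan receptor, rose by 1.59 and Serpina3n, a protease inhibitor, by 1.41, while Fkbp5, a target of glucocorticoids, fell (-2.07). In the KO 3 of 12 rose and 5 fell: Cp, which encodes ceruloplasmin, rose by 0.72 and Tm4sf1 by 0.74, and B3gnt5 fell (-0.95). The summed level of the 26 genes was 314 to 333 CPM in quiescent and 189 to 211 CPM in proliferating libraries, and 525 to 615 CPM in KO and 478 to 502 CPM in GFP control libraries.

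The authors' deposited table, with its sign turned to quiescent over proliferating, gives Aqp4 a log2 fold change of 3.38, Gfap 2.85, S100b 2.59 and Sparcl1 5.67. For the KO the authors' deposited table gives Clu 1.08, Cpe 1.13, Gfap 0.12 and Hopx 0.15. DESeq2 as run here gave Clu 1.32, Cpe 1.13, Gfap 0.31 and Hopx 0.59 in the KO, and Aqp4 4.89 with BMP4. How the deposited fold changes were set is not known here, so they may not be a like measure for genes with low counts.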
